A study of Mus musculus with 75 samples.

Results

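The 6 genes described here encode the class II histone deacetylases of the mouse: Hdac4, Hdac5, Hdac7 and Hdac9 of class IIa, and Hdac6 and Hdac10 of class IIb. They are 6 of the 41388 mouse gene IDs in 2 tables of read counts, and all 6 are in both. The family was chosen by a measured value: Hdac9 had fallen 11.9-fold in untreated Kmt2c knockout haematopoietic stem cells (HSC). The 3 contrasts of untreated HSC are therefore given as a description, with no test. All 6 genes passed the filter on low counts in each of 8 model fits.

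RNA-seq was done on sorted blood stem and progenitor cells of 8 week old mice. Experiment 1 holds 48 untreated libraries of HSC, haematopoietic progenitor cells (HPC), pre-granulocyte-monocyte progenitors (pGM) and granulocyte-monocyte progenitors (GMP), with 4 libraries in each of 12 groups. Its genotypes are wild type (wt), Kmt2c f/+; Vav-Cre (het) and Kmt2c f/f; Vav-Cre (ko). Kmt2c encodes a methyltransferase for lysine 4 of histone H3. Vav-Cre acts on the floxed (f) allele throughout the blood lineage, not only in the sorted population. The wt label names no Cre, and whether Cre itself changes a gene cannot be told apart from Kmt2c loss in ko against wt, while het and ko both have Cre. Experiment 2, with 27 libraries, covers HSC and HPC of wt and ko mice after PBS (the vehicle) or 0.5 µg of interleukin-1 (IL-1) per mouse for 3 days, in 8 groups of 3 or 4 libraries. Whether each replicate came from its own animal is not labelled, so every p-value here refers to spread among libraries, part of which may be technical.

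Libraries held 13273928 to 20814531 reads in experiment 1 and 18649343 to 42826325 in experiment 2. Levels are CPM, a gene's count scaled to the size of its library, after TMM scaling over all libraries of an experiment. Kmt2c was lower in every ko library than in every wt library of its population and treatment, with 1 exception. The library labelled HSC wt IL-1 replicate 1 had 14 CPM of Kmt2c, against 41.6 and 42.6 in the other wt IL-1 libraries and 12.7 to 16.8 in ko, so results that rest on it are given with and without it. Which exons are floxed is not stated in the labels, and counts over the whole gene include exons outside the deletion. The HSC libraries of experiment 2 carry an HPC entry in their cell type field but HSC in title and source name. Sex was not balanced with genotype in experiment 1: the summed level of Y-linked genes was 59.0 CPM or more in every wt and het library, and each ko group had a lowest library of 0.277 to 0.529. Over 9 HSC markers, the summed level in wt libraries was 2960 to 3940 CPM in HSC, 1200 to 1530 in HPC, 516 to 775 in pGM and 51.8 to 70.0 in GMP. Over 8 granulocyte-monocyte markers it was 953 to 2250 CPM in HSC and 136000 to 168000 in GMP.

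Histone deacetylases remove acetyl groups from lysines. Class IIa enzymes have weak catalytic activity of their own and act mostly as signal-controlled corepressors: they bind MEF2 transcription factors and recruit corepressor complexes, and kinases of the CaMK, PKD and SIK families phosphorylate them, so that 14-3-3 proteins hold them in the cytoplasm. In the class IIb pair, HDAC6 deacetylates alpha-tubulin and cortactin in the cytoplasm and binds ubiquitin, and HDAC10 is a polyamine deacetylase.

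The results turn on Hdac9 and Hdac7, and the 250 bases before their start sites are shown because those of Hdac9 stood at the low end in CpG dinucleotides. Sequences are from RefSeq (GRCm38.p6), 5′ to 3′ on the minus strand, where both genes lie. RefSeq gave 9 windows for 5 of the 6 genes. Capitals mark matches to the motifs searched on both strands: the GATA core AGATAA, RUNX core TGTGGT, ETS core CCGGAAG, GC box GGGCGG, AP-1 TGANTCA, NF-kB GGGNNTTTC and MEF2 core TATTTATA.
Hdac9, outer start, chr12:34917096-34917345: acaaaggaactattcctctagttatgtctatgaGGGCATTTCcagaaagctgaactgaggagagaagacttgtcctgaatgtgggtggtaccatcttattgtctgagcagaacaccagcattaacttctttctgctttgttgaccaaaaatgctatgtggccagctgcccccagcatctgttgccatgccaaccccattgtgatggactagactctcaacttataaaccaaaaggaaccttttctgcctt
Hdac9, inner start, chr12:34528890-34529139: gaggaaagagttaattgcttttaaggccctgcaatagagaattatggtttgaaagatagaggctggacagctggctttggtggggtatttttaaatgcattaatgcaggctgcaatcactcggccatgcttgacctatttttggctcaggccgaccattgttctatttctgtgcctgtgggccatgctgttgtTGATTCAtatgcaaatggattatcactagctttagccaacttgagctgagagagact
Hdac7, chr15:97831496-97831745: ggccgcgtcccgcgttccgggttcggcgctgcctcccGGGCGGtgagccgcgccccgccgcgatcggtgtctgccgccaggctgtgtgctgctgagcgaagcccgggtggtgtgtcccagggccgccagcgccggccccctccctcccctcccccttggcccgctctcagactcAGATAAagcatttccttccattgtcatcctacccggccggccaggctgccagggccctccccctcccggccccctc
The outer Hdac9 window holds 0 CpG dinucleotides and the inner one 2, and 18.8% of all 32851 RefSeq windows of this length have fewer than 2. The median window has 6. The Hdac7 window printed has 25, the most of its 4 windows, and the other 3 have 5, 21 and 6. Hdac4 has 23, Hdac5 12 and Hdac6 17. The G and C content was 44.4% and 43.6% in the 2 Hdac9 windows, 74.0% in the printed Hdac7 window, 61.2%, 62.0% and 56.4% in its other windows and 52.4% in the median window. The capitals mark 1 NF-kB match in the outer and 1 AP-1 match in the inner Hdac9 window, and 1 GC box and 1 GATA core in that of Hdac7. The other 3 Hdac7 windows hold 0 matches to the 7 motifs. Of all windows, 3.72% hold the NF-kB letters, 6.75% AP-1, 32.74% a GC box, 9.99% the GATA core, 14.05% the RUNX core, 6.91% the ETS core and 1.56% the MEF2 core. Hdac4 and Hdac6 have 4 GC boxes each, Hdac5 has 1, and Hdac6 also has 1 RUNX core. A match is a description of these letters only.

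In the GENCODE M21 annotation of GRCm38, all 6 genes lie on the minus strand. Hdac9 spans chr12:34047580-34917095, and most of its 10 annotated transcripts start near the inner start site, which gene-level counts cannot separate from the outer one. Hdac4 spans chr1:91928779-92195699, Hdac5 chr11:102194432-102230166, Hdac6 X:7930120-7947889, Hdac7 chr15:97792664-97844502 and Hdac10 chr15:89123307-89128700. Hdac7 shares 29 bases at its end with Slc48a1, a haem transporter gene on the other strand that stood at 139 to 434 CPM. Without knowledge of strand, reads of those bases cannot be told apart. Twist1, the nearest protein-coding gene below Hdac9, was at most 0.577 CPM in any group mean.

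Hdac10 had the highest level per kilobase of merged exons of the 6 genes in all 20 groups, and Hdac9 and Hdac5 the lowest. In wt HSC the levels per kilobase were 13.7 ± 2.76 CPM for Hdac10 (SD, n = 4), 7.33 ± 1.35 for Hdac7, 5.77 ± 1.01 for Hdac4, 5.60 ± 0.785 for Hdac6, 1.37 ± 0.479 for Hdac5 and 0.701 ± 0.204 for Hdac9. In that order, Hdac7 and Hdac4, and Hdac4 and Hdac6, overlapped between libraries. Divided instead by the longest transcript, Hdac4 at 11.3 CPM stood above Hdac7 at 9.56 and Hdac6 at 6.46, so the order of these 3 depends on the length used. Hdac9 exceeded Hdac5 only in wt HPC after IL-1, at 1.56 CPM per kilobase, with libraries that overlapped those of Hdac5.

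**Figure D1:**
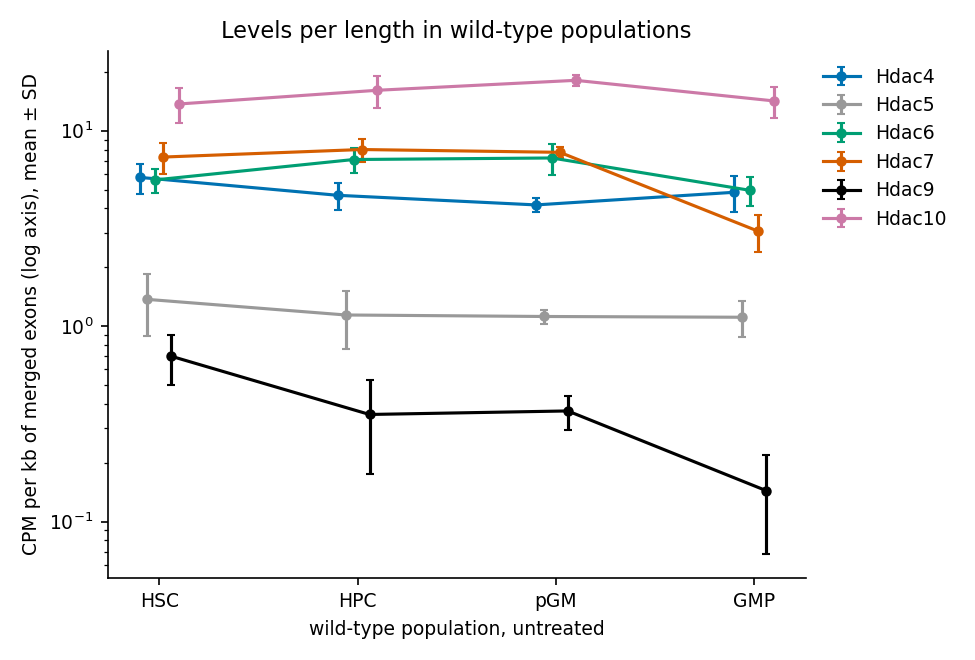
Levels of the 6 genes in CPM per kilobase of merged exons (log axis, mean ± SD of 4 libraries) in untreated wt HSC, HPC, pGM and GMP. Hdac10 is highest throughout, Hdac7 is lowest in GMP, and Hdac9 is the lowest gene in each population.

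Hdac9 also varied most between groups. Its highest group mean was 19.3 times its lowest in experiment 1 and 30.7 times in experiment 2. For Hdac7 these ratios were 4.64 and 1.69, and for Hdac4, Hdac5, Hdac6 and Hdac10 they lay between 1.33 and 1.89. The highest Hdac9 group mean in experiment 1 was 10.3 CPM in wt HSC, whose libraries entered the contrast that chose the family. The lowest group mean there was 0.534 CPM in ko GMP, and that in experiment 2 was 0.746 CPM in ko HSC after PBS.

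Hdac9 encodes a class IIa enzyme known as a repressor of MEF2 targets, and has a splice form without the deacetylase domain. In untreated HSC, Hdac9 was at 6.30, 13.1, 11.9 and 9.78 CPM in the 4 wt libraries, 2.58, 8.52, 3.95 and 7.70 in het, and 1.11, 0.696, 0.293 and 1.32 in ko. The ko libraries lie below all others, and het and wt overlap. The log2 fold change was -3.58 ± 0.47 (SE) for ko minus wt, -0.85 ± 0.41 for het minus wt and -2.73 ± 0.46 for ko minus het. These contrasts chose the family or share its libraries, and they support nothing further. Over all genes, edgeR called 1.78% of 13806 in ko minus wt, 0.00724% in het minus wt and 0.326% in ko minus het. The other 5 genes had log2 fold changes of -0.10 to 0.14 between ko and wt HSC. The summed level of 8 macrophage markers was 18.6 to 33.8 CPM in ko HSC and 64.6 to 129 in wt. The megakaryocyte-platelet sum was 267 to 366 against 489 to 641, and the T and NK cell sum 77.4 to 116 against 129 to 162. The HSC, granulocyte-monocyte, erythroid, B cell and endothelial and stromal sums overlapped. The part of these markers was not tested.

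**Figure D2:**
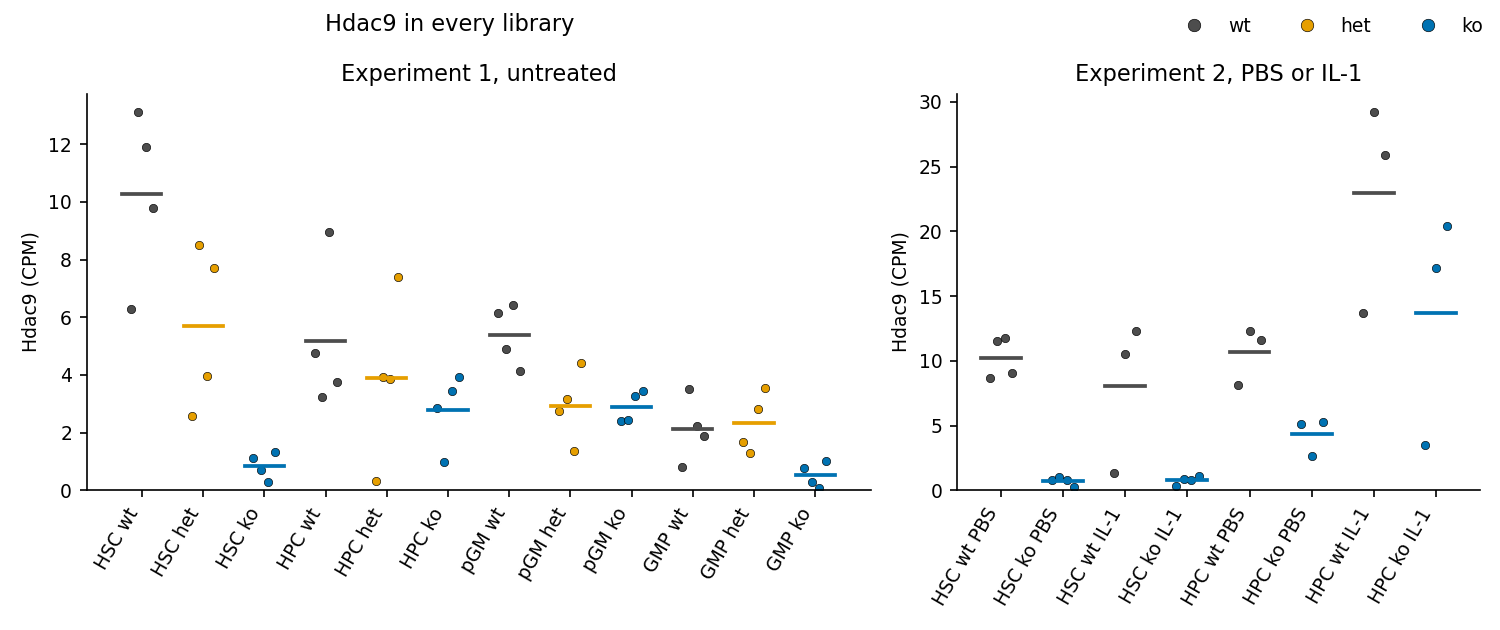
Hdac9 in CPM in each library of both experiments, by population, genotype and treatment. Points are libraries and bars are group means. Ko HSC lie at 0.282 to 1.32 CPM, and HPC after IL-1 reach 29.2 CPM.

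The members were chosen with earlier results of these data known. The fall that chose the family was measured without the HSC of experiment 2, and Hdac9 fell there too. After PBS it was at 8.66, 11.5, 11.8 and 9.03 CPM in wt HSC and at 0.799, 1.07, 0.833 and 0.282 CPM in ko HSC. The groups do not overlap, and no ko library is above 1.07 CPM. The log2 fold change was -3.78 ± 0.56 (13.7-fold lower, edgeR adjusted p = 0.00316). Of 16538 genes, 0.798% were called in this comparison, and Hdac9 was the 1 of the 6 members that passed. It also passed with each library left out in turn (adjusted p 0.00607 to 0.0209). The other 5 members had log2 fold changes of -0.16 to 0.37 and adjusted p of 0.812 to 0.969. The 95% intervals were -0.68 to 0.39 for Hdac4, -0.27 to 1.01 for Hdac5, -0.53 to 0.65 for Hdac6, -0.38 to 0.47 for Hdac7 and -0.51 to 0.19 for Hdac10.

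Markers of other cells moved with genotype in these libraries. The summed level of 8 macrophage markers was 80.7 to 98.6 CPM in wt HSC after PBS and 21.3 to 37.5 in ko, and that of 8 megakaryocyte-platelet markers 426 to 619 against 184 to 313. Ko libraries were higher in 8 granulocyte-monocyte markers, at 412 to 639 CPM against 318 to 397 in wt, and in 8 erythroid markers, at 140 to 400 against 93.2 to 138. The endothelial and stromal sum overlapped, at 166 to 262 CPM in wt and 105 to 169 in ko, as did the T and NK cell sum, at 82.8 to 135 and 72.2 to 99.1. Of the granulocyte-monocyte markers, Ctsg was at 0 in all ko libraries, and no macrophage, megakaryocyte-platelet or erythroid marker was at 0 throughout a group. Their part in the fall of Hdac9 was not tested. Bulk libraries do not tell fewer cells with Hdac9 RNA from less Hdac9 RNA per cell. Sex was not balanced with genotype here either. The Y-linked sum had a median of 143 CPM in wt (0.0348 to 201) and of 0.0928 in ko (0.0 to 133). With Y-linked genes as a covariate Hdac9 passed in edgeR (adjusted p = 0.0144, against 5.67e-10 to 0.0209 over all alternatives).

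After IL-1, Hdac9 was at 1.31, 10.5 and 12.3 CPM in wt HSC and 0.304, 0.885, 0.819 and 1.13 in ko HSC. The 1.31 CPM belong to the library with a Kmt2c level in the ko range, and the macrophage marker sum overlapped, at 23.0 to 71.6 CPM in wt and 19.0 to 27.2 in ko. The erythroid sum was 577 to 649 CPM in wt and 411 to 562 in ko, and the T and NK cell sum was 126 to 173 against 109 to 115, with Cd3g and Klrd1 at 0 in both. The part of these markers was not tested. With the doubted library the log2 fold change was -3.39 ± 0.57 (edgeR adjusted p = 0.0889), and 0% of 16538 genes were called, with 1413 at an unadjusted p under 0.05. DESeq2 called 89 genes, Hdac9 among them (adjusted p = 6.21e-06). Without that library Hdac9 was called by edgeR at -3.89 ± 0.43 (adjusted p = 0.00021, against 6.21e-06 to 0.764 over all alternatives). The next largest difference was that of Hdac6, at 36.7, 17.7 and 24.7 CPM in wt and 56.6, 52.6, 49.7 and 24.9 in ko (0.77 ± 0.33, adjusted p = 0.544). These groups overlap through the lowest ko library, and Hdac6 passed only with a replicate block (0.98, adjusted p = 0.0371, up to 1 in the other alternatives). The Y-linked sum was 108 to 174 CPM in wt and 0.0 to 144 in ko (median 0.0624). Sex was thus not balanced with genotype, and Hdac6 lies on the X chromosome. With Y-linked genes as a covariate, Hdac9 had -3.37 ± 0.74 and did not pass (edgeR adjusted p = 0.338).

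In HPC, fold changes of Hdac9 were smaller and none passed. Untreated HPC had 4.75, 3.24, 8.96 and 3.74 CPM in wt, 0.324, 3.93, 3.85 and 7.41 in het, and 2.84, 0.989, 3.44 and 3.94 in ko. The 3 genotypes overlap, and ko minus wt was -0.90 ± 0.61 (adjusted p = 0.831). The granulocyte-monocyte sum was 2490 to 3010 CPM in wt and 3630 to 5300 in ko. Sums were lower in ko for megakaryocyte-platelet (25.5 to 42.0 against 84.0 to 143), T and NK cell (426 to 522 against 745 to 1050), macrophage (35.1 to 83.9 against 85.5 to 148) and HSC markers (982 to 1150 against 1200 to 1530). The erythroid, B cell and endothelial and stromal sums overlapped, and the part of these markers was not tested. The share of genes called in HPC was 1.1% for ko minus wt, 0.00753% for het minus wt and 0.196% for ko minus het, and no member was among them. After PBS, HPC had 8.14, 12.3 and 11.6 CPM in wt and 5.11, 2.67 and 5.32 in ko. These do not overlap, and the change was -1.29 ± 0.50 (adjusted p = 0.448), where 0.257% of genes were called. There the granulocyte-monocyte sum was 913 to 1520 CPM in wt and 1650 to 2220 in ko, and the megakaryocyte-platelet sum 70.7 to 155 against 53.3 to 65.4, and their part was not tested. After IL-1 it was -0.74 ± 0.49 (adjusted p = 1), with 0.201% called.

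The difference of the PBS ko effect between populations was itself tested. It was 2.49 ± 0.78 log2 units smaller in size in HPC than in HSC (unadjusted p = 0.00381, adjusted p = 0.673 by edgeR). For this term 0% of 17511 genes were called, with 1016 at an unadjusted p under 0.05. DESeq2 called 13 genes for it, none of them a member. The difference between HSC and HPC thus missed the threshold after adjustment.

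In pGM, Hdac9 was at 6.14, 4.89, 6.41 and 4.14 CPM in wt, 2.75, 3.17, 1.38 and 4.41 in het, and 2.41, 2.43, 3.28 and 3.46 in ko. Ko does not overlap wt, whereas het overlaps both. The log2 fold change was -0.89 ± 0.32 for ko (adjusted p = 0.253) and -0.87 ± 0.32 for het (adjusted p = 0.553). The genes called in pGM made up 1.94% in ko minus wt, 0.0155% in het minus wt and 0.564% in ko minus het. None was a member. The erythroid sum was 232 to 330 CPM in wt pGM and 449 to 561 in ko, the megakaryocyte-platelet sum 111 to 130 against 41.5 to 94.7, and the T and NK cell sum 931 to 1140 against 467 to 598. Their part was not tested.

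In GMP the counts of Hdac9 were low, at 10 to 44 reads in wt and 1 to 18 in ko. The levels were 0.824, 3.52, 2.23 and 1.88 CPM in wt, 1.68, 1.29, 2.82 and 3.55 in het, and 0.763, 0.294, 0.0701 and 1.01 in ko. The ko libraries overlap wt through its lowest library and lie below all het libraries. The change was -1.91 ± 0.61 for ko minus wt (adjusted p = 0.253) and -2.05 ± 0.61 for ko minus het (adjusted p = 0.556). With Y-linked genes as a covariate these changes were -3.47 ± 0.78 (edgeR adjusted p = 0.112) and -3.79 ± 0.83 (adjusted p = 0.603).

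Hdac5 and Hdac7, both class IIa, had higher mean levels in ko GMP than in wt, and neither passed. Hdac5 stood at 12.3, 8.47, 7.89 and 10.4 CPM in wt, 9.81, 11.4, 9.41 and 8.02 in het, and 16.8, 13.3, 19.9 and 14.5 in ko. Its ko libraries lie above all of wt and het, and the change against wt was 0.73 ± 0.21 (edgeR adjusted p = 0.18, DESeq2 0.0429, 0.0429 to 0.443 over all alternatives). Hdac7, known for its part in lymphocyte and endothelial cells, stood at 26.0, 22.5, 16.1 and 17.9 CPM in wt, 15.6, 20.8, 17.3 and 14.4 in het, and 33.6, 21.2, 31.9 and 25.8 in ko. Ko lies above het and overlaps wt, with changes of 0.72 ± 0.21 against het (adjusted p = 0.51) and 0.45 ± 0.21 against wt (adjusted p = 0.516). In GMP, 0.555% of genes were called in ko minus wt, 0.00828% in het minus wt and 0.0166% in ko minus het. The granulocyte-monocyte marker sum was 100000 to 132000 CPM in ko GMP and 136000 to 168000 in wt. The HSC marker sum was 78.8 to 102 CPM in ko and 51.8 to 70.0 in wt, where Hoxb5 was at 0 in all libraries, and the macrophage sum was 75.3 to 93.1 in ko and 101 to 172 in wt. The part of these markers was not tested.

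**Figure D3:**
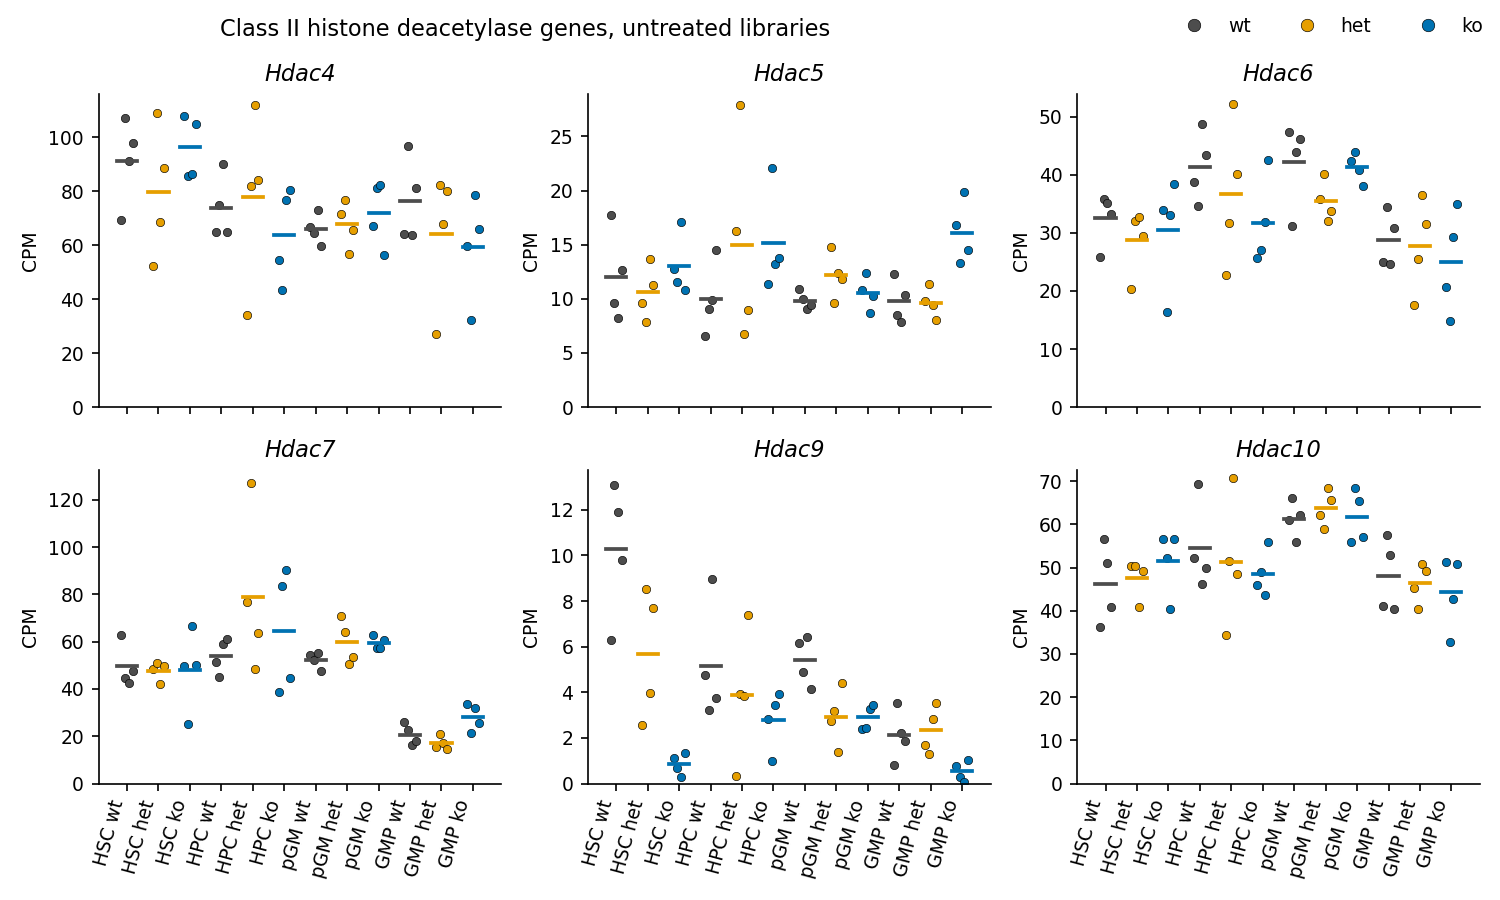
The 6 genes in CPM in each untreated library, by population and genotype. Points are libraries and bars are group means. Hdac9 is low in ko HSC, Hdac7 is at 14.4 to 33.6 CPM in GMP, and Hdac5 in ko GMP, at 13.3 to 19.9 CPM, lies above wt and het GMP.

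Hdac4, a class IIa enzyme known from muscle and cartilage, and the class IIb genes Hdac6 and Hdac10 had no edgeR call against wt in the comparisons tested. Over the 8 comparisons of ko with wt, their log2 fold changes were -0.36 to 0.17 for Hdac4, -0.39 to 0.77 for Hdac6 and -0.17 to 0.26 for Hdac10. Hdac6, which lies on the X chromosome, was at 31.1, 31.1 and 43.9 CPM in wt HPC after PBS and 52.6, 48.8 and 47.9 in ko. Those groups do not overlap, and the change was 0.49 ± 0.18 (adjusted p = 0.444).

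**Figure D4:**
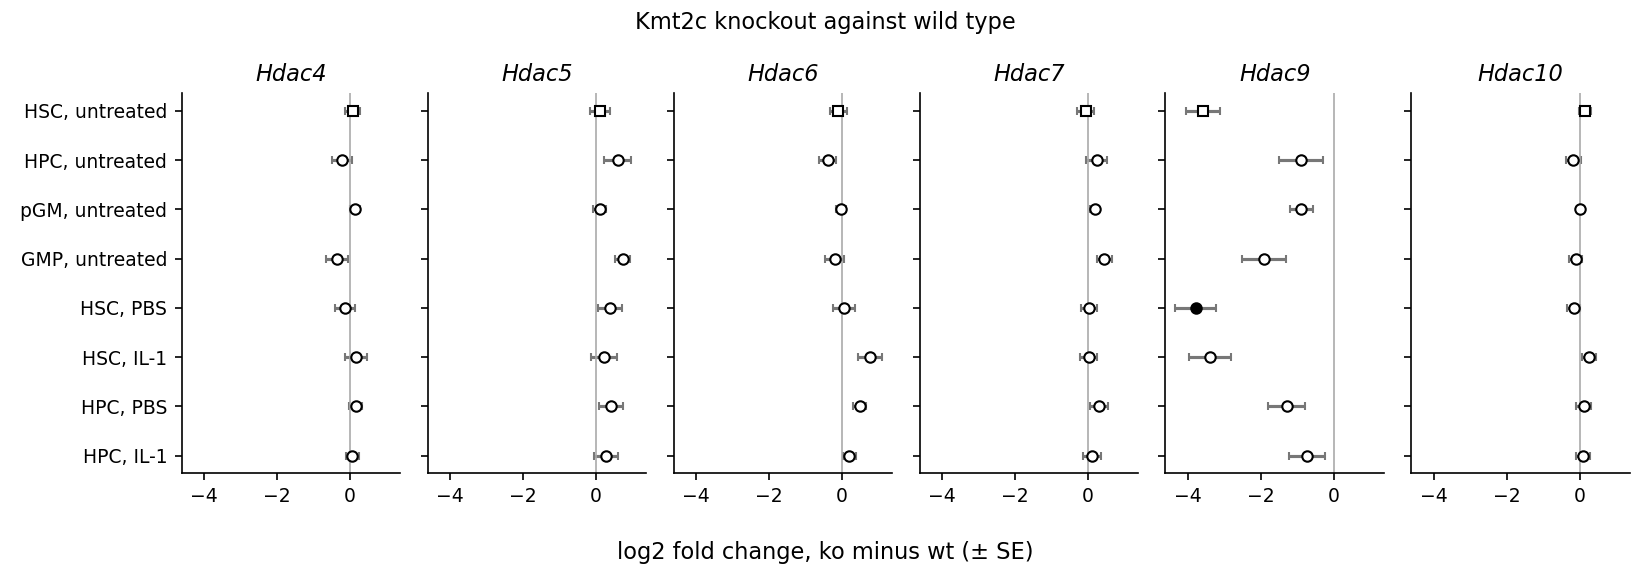
Log2 fold change of ko minus wt (± SE) for the 6 genes in 8 comparisons. The filled circle is the 1 change called by edgeR (Hdac9 in HSC after PBS, -3.78), open circles were not called, and squares are untreated HSC, shown without a test.

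Between wt populations, Hdac7 was lower in GMP. It was at 62.9, 44.8, 42.7 and 47.6 CPM in HSC, 51.5, 45.1, 58.9 and 60.9 in HPC, and 54.3, 52.4, 55.1 and 47.6 in pGM. In GMP it was at 26.0, 22.5, 16.1 and 17.9 CPM, below every library of the other populations. From pGM to GMP it fell by 1.34 on the log2 scale (SE 0.24, edgeR adjusted p = 2.58e-05), where 29.0% of 15110 genes were called. From HSC to GMP the change was -1.26 ± 0.24 (adjusted p = 1.92e-05), where 61.2% of genes were called. The median log2 change of all genes was -0.11 and -0.16 in these 2 comparisons. Scaling factors ran from 0.751, in wt GMP, to 1.25 in the untreated libraries. Hdac7 passed both under every alternative setting run, at -1.48 to -1.25 and -1.43 to -1.13.

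Hdac9 had its highest wt level in HSC and its lowest in GMP among untreated libraries. The change from pGM to GMP was -1.35 ± 0.55 (adjusted p = 0.0579), and it passed in 5 of 14 alternative settings. The untreated wt HSC libraries entered the contrast that chose the family, so the change from HSC to GMP, -2.28 ± 0.55, and that from HSC to HPC, -0.99 ± 0.52, are descriptions with no test. From HSC to HPC 22.8% of genes were called. In the PBS libraries it was 0.05 ± 0.52 (adjusted p = 0.967, 95% interval -0.97 to 1.08), where 13.8% were called.

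For the step from pGM to GMP, Hdac6 had -0.55 ± 0.24 (adjusted p = 0.0796) and Hdac10 -0.35 ± 0.17 (adjusted p = 0.107), while Hdac4 and Hdac5 had 0.21 ± 0.27 and -0.01 ± 0.29. Hdac7 was thus the 1 member of 6 called at this step, where 29.0% of all genes were called. Of the members other than Hdac9 it was also the 1 called from HSC to GMP, where 61.2% were called. These counts do not exceed the shares over all genes. No member was called from HPC to pGM, where 12% of genes were called. From HSC to HPC, where 22.8% were called, no member tested was called, and Hdac9 was left without a test. With only pGM and GMP in the fit, 4 of the 6 were called lower in GMP, the exceptions being Hdac4 and Hdac5, and 5192 of 12193 genes were called.

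No member was called by edgeR between IL-1 and PBS, and 3 values had an unadjusted p under 0.05: Hdac9 in wt HPC (0.0419) and ko HPC (0.00541), and Hdac4 in ko HPC (0.0196). Hdac9 was at 13.7, 29.2 and 25.9 CPM in wt HPC after IL-1, above the 8.14 to 12.3 after PBS, with a change of 1.1 ± 0.49 (edgeR adjusted p = 0.466). In ko HPC it was at 3.48, 17.2 and 20.4 after IL-1 and 2.67 to 5.32 after PBS, with a change of 1.65 ± 0.50 (adjusted p = 0.318). The ko groups overlap through the lowest IL-1 library. Without that library, HPC ko IL-1 replicate 1, the change was 2.11 and passed (adjusted p = 0.0102), and DESeq2 called it with all libraries (adjusted p = 0.042, up to 0.828 over all alternatives). The sum of 8 erythroid markers was 73.5 to 80.1 CPM after PBS and 165 to 320 after IL-1 in wt HPC, and 52.9 to 95.9 and 139 to 203 in ko HPC. The HSC marker sum was 905 to 1400 CPM after PBS and 539 to 704 after IL-1 in wt HPC, and 1000 to 1120 and 605 to 683 in ko HPC. No marker of either list was at 0 in all libraries of an HPC group, and their part was not tested. Sex was not balanced with treatment in wt HPC. The Y-linked sum there had a median of 0.102 CPM after PBS (0.0706 to 217) and of 192 after IL-1 (0.0949 to 214). With Y-linked genes as a covariate the Hdac9 change was 1.29 ± 0.53 in wt HPC (edgeR adjusted p = 0.441). In ko HPC it was 1.59 ± 0.51 (adjusted p = 0.415).

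In HSC, the IL-1 change of Hdac9 was -0.33 ± 0.53 in wt (95% interval -1.36 to 0.71) and 0.06 ± 0.55 in ko (-1.02 to 1.14). Without the doubted wt library the wt value was 0.18. The erythroid sum of wt HSC was 93.2 to 138 CPM after PBS and 577 to 649 after IL-1, and that of ko HSC 140 to 400 and 411 to 562. In wt HSC the granulocyte-monocyte sum was 318 to 397 CPM after PBS and 541 to 698 after IL-1. The macrophage sum there was 80.7 to 98.6 and 23.0 to 71.6, and the HSC marker sum 2550 to 3100 and 2140 to 2240. In ko HSC these sums overlapped, while the T and NK cell sum was 72.2 to 99.1 and 109 to 115. The part of these markers was not tested. The called shares were 0.947% (wt) and 0.433% (ko) of 15951 genes in HPC, and 0.200% (wt) and 0.212% (ko) of 16538 in HSC. The IL-1 response of Hdac9 differed between ko and wt by 0.55 ± 0.69 in HPC and 0.39 ± 0.76 in HSC (-0.12 without the doubted library). For these terms 0% of genes were called in either population, with 352 and 756 at an unadjusted p under 0.05, and DESeq2 called 12 and 1 genes, none a member. Between HPC and HSC the wt response differed by 1.47 ± 0.78 (adjusted p = 0.873, 0.97 without the doubted library), where 0.0228% were called. Hdac4 was lower after IL-1 in HPC, at 64.3, 50.9 and 58.2 CPM against 73.0, 69.8 and 79.8 after PBS in wt (-0.36 ± 0.17, adjusted p = 0.504), and at -0.45 ± 0.17 in ko (adjusted p = 0.528). In ko HPC, Hdac4 was at 71.4, 55.6 and 53.5 CPM after IL-1 and 75.7, 79.3 and 92.1 after PBS. The treatments do not overlap in either genotype.

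The enzymes' regulators were read from lists of known partners. Of 13 tested class IIa kinases, 8 were lower and 0 higher in wt GMP than in wt HSC, with a median of -0.66 against -0.16 over all genes. There 61.2% of all 15110 genes were called, 5088 lower and 4162 higher. The calcium-dependent kinase Camk2d fell by 3.44 (SE 0.21, adjusted p = 5.66e-18) and Camk1d fell by 4.04 (SE 0.37, adjusted p = 1.08e-12). From pGM to GMP, 5 of the kinases were lower and 0 higher, where 29.0% of all genes were called, 2724 lower and 1657 higher. Of 15 tested bound factors and corepressors, 6 were lower and 1 higher in GMP than in HSC. Mef2c, a MEF2 factor that class IIa enzymes repress, fell by 1.22 (SE 0.18, adjusted p = 2.22e-07). Of 7 genes for 14-3-3 proteins, 1 was higher and 0 lower, with Ywhae at 0.65 ± 0.12.

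For class IIb, 6 of 14 Hdac6 partners were higher and 4 lower in wt GMP than in HSC. The tubulin acetyltransferase gene Atat1 fell by 2.65 (SE 0.29, adjusted p = 9.18e-11), and the chaperone gene Hsp90ab1 rose by 0.80 (SE 0.12, adjusted p = 1.12e-07). Of 11 polyamine genes, 6 were higher and 2 lower, with spermidine synthase Srm at 2.18 ± 0.20 (adjusted p = 8.34e-13) and spermine oxidase Smox at -2.31 ± 0.27 (adjusted p = 5.21e-10). Of 12 deacetylases of other classes, 2 were higher and 2 lower, and Hdac11 fell by 4.38 (SE 0.51, adjusted p = 6.37e-10). These counts stand against 61.2% of all 15110 genes called, 5088 lower and 4162 higher.

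Between ko and wt, 3 genes of the 6 lists were called. Camk2d was the 1 of 13 kinases called in pGM, at -1.24 ± 0.21 for ko minus wt (adjusted p = 0.00307; 1.94% of all genes) and -0.97 ± 0.21 for ko minus het (adjusted p = 0.0478; 0.564%). Srm was the 1 of 10 polyamine genes called in untreated HPC, at 0.89 ± 0.21 (adjusted p = 0.0481), where 1.1% of all genes were called. Sat2, a relative of the polyamine acetyltransferase Sat1, was the 1 of 11 called in HSC after PBS, at 2.97 ± 0.60 (adjusted p = 0.0249), where 0.798% were called. With IL-1, Paox, which oxidises acetylated polyamines, was the 1 of 11 called in wt HPC (0.97 ± 0.19, adjusted p = 0.0193), where 0.947% were called.

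Within groups, 2 pairs of members were correlated in both experiments. Each library's deviation from its group mean (log2 of CPM + 0.5) was compared for all 15 pairs in both experiments, giving 30 correlations. Hdac5 and Hdac7 had r = 0.64 and rho = 0.56 over 48 libraries (permutation p = 0.00011 and 0.00063, adjusted 0.0011 and 0.00473), and r = 0.84 and rho = 0.85 over 27 (p = 1e-05 for both, the smallest that 100000 permutations give, adjusted 0.00015). Without the 2 libraries farthest out, r was 0.51 and 0.80. Hdac4 and Hdac6 had r = 0.75 and rho = 0.71 over 48 (p = 1e-05 for both, adjusted 0.00015), and r = 0.79 and rho = 0.72 over 27 (p = 0.00634 and 0.00378, adjusted 0.0317 and 0.0162). Without the farthest 2, r was 0.69 and 0.58. Hdac9 had r = 0.63 with Hdac4 and 0.53 with Hdac6 in experiment 1 (adjusted permutation p = 0.00435 and 0.015) and -0.17 with each in experiment 2 (adjusted 0.44 and 0.57). Hdac4 and Hdac10 had r = 0.48 and rho = 0.36 in experiment 1 (adjusted permutation p = 0.0327 and 0.0864) and r = 0.29 in experiment 2. Hdac9 and Hdac10 had r = 0.46 and rho = 0.43 (adjusted 0.0862 and 0.0358) and r = -0.35. Hdac9 and Hdac5 went in opposite directions in experiment 1, with r = -0.47 and rho = -0.50 (adjusted 0.119 and 0.0129), and had r = 0.39 in experiment 2. Some members also moved with the scaling factor of their library. In experiments 1 and 2 the within-group r with it was 0.73 and 0.34 for Hdac7, 0.55 and 0.36 for Hdac5, 0.25 and 0.78 for Hdac4, 0.23 and 0.76 for Hdac6, -0.23 and -0.02 for Hdac10, and 0.01 and 0.06 for Hdac9. The part of library composition in these correlations was not tested. Within-group correlations of other gene pairs were not computed, so no share over all pairs stands beside these values.

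**Figure D5:**
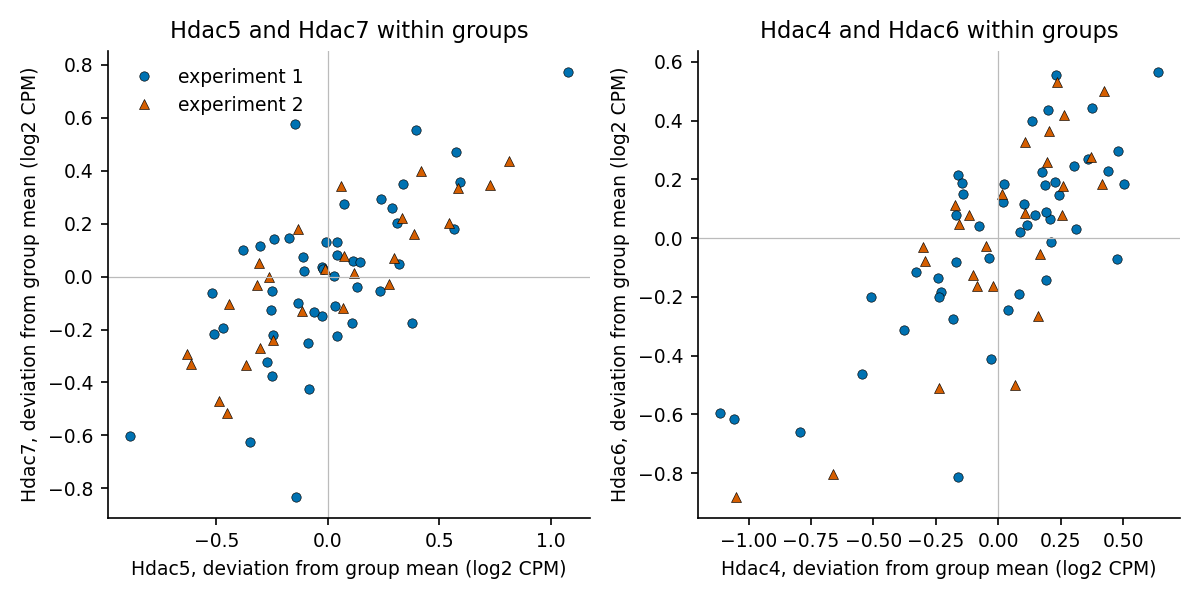
Deviation of each library from its group mean in log2 CPM, Hdac7 against Hdac5 (left) and Hdac6 against Hdac4 (right), for 48 libraries of experiment 1 (circles) and 27 of experiment 2 (triangles). Both pairs slope upward in both experiments, with r of 0.64 and 0.84 on the left and 0.75 and 0.79 on the right.

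Genes with the most similar pattern over the 12 groups of experiment 1 were found by Pearson's r of group means among 10886 genes. For Hdac9 they were Fam198b (r = 0.85) and the phosphodiesterase gene Pde3b (0.844), with r of 0.552 and 0.563 over the 8 groups of experiment 2. For Hdac7 they were Zfp994 and Med13l (0.973 each), with -0.196 and 0.749 in experiment 2. For Hdac6, Dip2b had 0.929 and Rbpj 0.921, with 0.632 and 0.845 in experiment 2. For Hdac10, Taf8 had 0.937 and Ap1m1 0.926, with 0.565 and 0.334. For Hdac4, Lrrc58 had 0.932 and Abca3 0.925, with 0.274 and -0.463, and for Hdac5, Traf3 had 0.87 and Def6 0.867, with 0.454 and -0.21. The genes named depend on the measure. By Spearman's rho they were S1pr1 and Hemgn for Hdac9 (0.909 each) and Arl2bp and Cnot6 for Hdac7 (0.979 each). For Hdac10 they were Iqcc (0.902) and Dis3l2 (0.895). Hdac5 kept both genes, while Hdac4 kept only Lrrc58 and Hdac6 only Dip2b. These are descriptions over groups that share libraries and scaling.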

How the data were processed

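Whole read counts per gene were used as deposited by the authors. The submitters' processing notes name STAR 3.0.4 as aligner and featureCounts 1.4.5, of Subread, as counter. Genome build and strandedness: not given in the sources used here. Columns were assigned to samples by title (0 left unassigned), and 3 entries that are not mouse genes, 0.0001% of the reads, were left out. Symbols came from GENCODE M21, which holds 40254 of the 41388 gene IDs.

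The members and lists were chosen with earlier results of these data known. Named genes are the 6 members and Kmt2c, up to 2 called genes with the smallest p per list and comparison, and the 2 genes most like each member. 8 fits with edgeR 4.0.16 (R 4.3.3; quasi-likelihood F test, filterByExpr at 10 reads and a total of 15, TMM, robust) gave 29 comparisons, with calls at p under 0.05 after Benjamini-Hochberg adjustment over all genes tested. Each population had its own fit, and 1 fit of all libraries of each experiment gave the comparisons between populations. Alternatives were RLE scaling, no filter, a replicate block, a Y-linked covariate, other libraries in the fit, DESeq2 1.42.0 and leaving out each library.

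Same-numbered libraries deviated together, every pair over r = 0.1, only in HPC ko against wt after IL-1 (r 0.16 to 0.37). There the block changed the call of no member. In the other comparisons not every pair passed that limit, and the numbers were not used as pairs in the main fits. Same-numbered pairs still stood above all others in HPC ko against wt after PBS (r 0.05 to 0.12 against -0.09 to 0.01). So did those for IL-1 in ko HPC (0.08 to 0.16 against -0.11 to 0.01). There the block raised the calls over all genes from 41 to 96 and from 69 to 132.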

Additional observations from a re-analysis of the deposited data

Results flagged for a closer look

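3 levels of members stood apart from the other 3 libraries of their group by Dixon's test, among 90 sets of 4 libraries examined (1 member in 1 group), of which chance picks out about 1 in 20. Hdac4 was 30.7 CPM in HSC ko PBS replicate 4, where the other libraries had 76.9 to 85.5. Hdac4 was also 39.2 CPM in HSC ko IL-1 replicate 4, where the others had 71.5 to 74.7. Hdac6 was the lowest of its group in the same libraries, at 16.2 and 24.9 CPM. Hdac10 was 40.9 CPM in HSC het replicate 3 of the untreated libraries, where the others had 49.1 to 50.4.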

How the results depend on the processing

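Across all settings, 0 member values lost a call and 0 reversed a call, while 18 gained one. Few tested values had a call to lose: Hdac7 in wt GMP against pGM and against HSC, and Hdac9 in HSC after PBS. The values of Hdac9 in untreated HSC and in wt GMP against HSC were left without a test. Another 25 values moved by more than their standard error with no change of call, among them Hdac9 in ko against wt GMP, -3.47 in place of -1.91 with the Y-linked covariate. Hdac9 in HSC after PBS kept its call in all 14 alternatives (log2 fold change -4.00 to -3.51, adjusted p up to 0.0209). The number of members called for ko against wt HSC after IL-1 was 0 as reported, 1 with no filter, with all libraries in 1 fit or with DESeq2, 2 with the replicate block, and 0 to 1 when a library was left out. It was 1 without HSC wt IL-1 replicate 1. Same-numbered libraries did not all deviate together there (r -0.05 to 0.17). The block moved the count over all genes there from 0 to 190 and called Hdac6 (0.98, adjusted p = 0.0371) and Hdac9 (-3.15, adjusted p = 0.0115). For wt GMP against pGM the number called was 1 as reported, 2 with the replicate block, the Y-linked covariate or DESeq2, 4 with only the groups compared in the fit, and 1 to 2 when a library was left out. It was 2 without GMP wt replicate 2 (Hdac7 and Hdac9) and without pGM wt replicate 2 (Hdac6 and Hdac7). For wt HPC against HSC it was 0 as reported and 1 with only the groups compared, which was Hdac9, whose wt HSC values chose the family. DESeq2 gave 1 call in place of 0 for ko against wt GMP (Hdac5) and for IL-1 in ko HPC (Hdac9), where leaving out a library gave 0 to 1. Over all genes, the Y-linked covariate lowered the calls in HSC after PBS from 132 to 61, and DESeq2 raised them to 375. Leaving out 1 library lowered them to between 42 and 91, those in HPC after PBS from 41 to between 7 and 17, and those in ko against wt GMP from 67 to between 16 and 66. The cause of these changes was not tested. Depth limits Hdac9 most: ko GMP libraries held 1 to 18 of its reads.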
